A study of Mus musculus with 9 samples.

Results

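The angiogenic and vasoactive factors described here are secreted signals that act on vessel growth and vessel tone, together with an enzyme that activates a member of the group. They were taken by symbol, 10 genes out of the 54532 in the deposited table, and all 10 were found: Vegfa, Vegfb, Pgf, Adm, Edn1, Ece1, Angptl4, Pdgfa, Pdgfb and Thbs1. RNA was sequenced from BV2, an immortalized line of mouse microglia, as 3 groups of 3 libraries. The Ctrl group stayed in complete medium with 10% fetal bovine serum. The OGD (oxygen and glucose deprivation) group had low-glucose medium with 4% serum under 4% oxygen in a hypoxic chamber. The OGD + A-485 group had the same deprivation together with A-485, an inhibitor of the acetyltransferases P300 and CBP. The study's results text gives 50 μM of A-485 and 24 h of deprivation for the assays done before the transcriptome, and these figures are not repeated for the RNA libraries. None of the 9 libraries had A-485 without OGD, so a response to the inhibitor could be measured only in deprived cells. Low oxygen, low glucose and less serum were changed together in OGD and cannot be told apart. The labels do not say whether replicates came from separate cultures, so the p-values measure only the spread between these libraries.

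VEGF-A is the main growth factor for endothelial cells and a classical target of the hypoxia-inducible factors, and VEGF-B and placental growth factor are relatives that bind the receptor FLT1 but not KDR. Adrenomedullin widens vessels and endothelin-1 narrows them, and endothelin-converting enzyme cuts the inactive precursor of endothelin to its active form. PDGF-B recruits pericytes to vessels, ANGPTL4 inhibits lipoprotein lipase and acts on vessel permeability, and thrombospondin-1 is an inhibitor of angiogenesis that binds CD36 and CD47.

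Levels are given in FPKM, fragments scaled to gene length and depth, as deposited. Reads on genes, recovered from FPKM and gene length, came to between 12593250 and 16091038 per library. Mitochondrial genes took 1.14% to 1.28% of the reads in the OGD libraries, 1.82% to 2.20% in Ctrl and 1.66% to 2.01% in OGD + A-485, and the part of this difference in the results was not tested. The cell line label was checked against 12 microglia and macrophage markers, of which 11 averaged 1 FPKM or more, led by Cd68 at 343 FPKM. P2ry12, a marker of homeostatic microglia, was close to 0 with a mean of 0.105 FPKM. The summed level of these 12 markers was highest with the inhibitor, at 1246 to 1286 FPKM in OGD + A-485, 671 to 703 in OGD and 559.9 to 580.1 in Ctrl. In bulk RNA, a change in the share of cells that express a gene and a change in RNA per cell cannot be told apart.

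Changes were tested with limma on log2(FPKM + 0.1) in 1 fit of all 9 libraries, restricted to the 16123 genes whose mean reached 0.2 FPKM. Calls required an unadjusted p under 0.01 and a log2 fold change beyond 0.5 in either direction, the thresholds of the study, and adjusted p-values (Benjamini-Hochberg over all genes tested) are given beside. The added 0.1 shrinks the fold changes of genes with low FPKM. Of the 10 members, 9 passed the filter on low values, and Thbs1 did not. Adm, with a mean of 0.173 FPKM in Ctrl, passed it through the OGD and OGD + A-485 libraries. Those are the groups in which it was then called higher than Ctrl. In OGD against Ctrl, 4 of the 9 members were called higher (Vegfa, Adm, Edn1 and Pdgfb), where 11.2% of all genes tested were, and 0 were called lower by limma, where 9.81% were. Of these 9, Vegfb alone was below Ctrl in OGD at an unadjusted p under 0.05, and limma-voom on the recovered reads called 0 lower as well. In OGD + A-485 against OGD, 2 members (Edn1 and Ece1) were called lower, against 13.4% of all genes, and 0 were called higher by limma, against 12.2%. Of the 9 tested, Vegfa alone was above OGD there at an unadjusted p under 0.05, and limma-voom called 0 higher too. Against Ctrl, the OGD + A-485 libraries had 3 members called higher (Vegfa, Adm and Pdgfb), against 17.0% of all genes, and 1 called lower (Ece1), against 16.6%. With a minimum mean of 1 FPKM, which leaves Adm out, the members called higher in OGD against Ctrl were Vegfa, Edn1 and Pdgfb. In OGD + A-485 against Ctrl they were Vegfa and Pdgfb. The 3 comparisons share libraries and are not independent of each other.

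**Figure D1:**
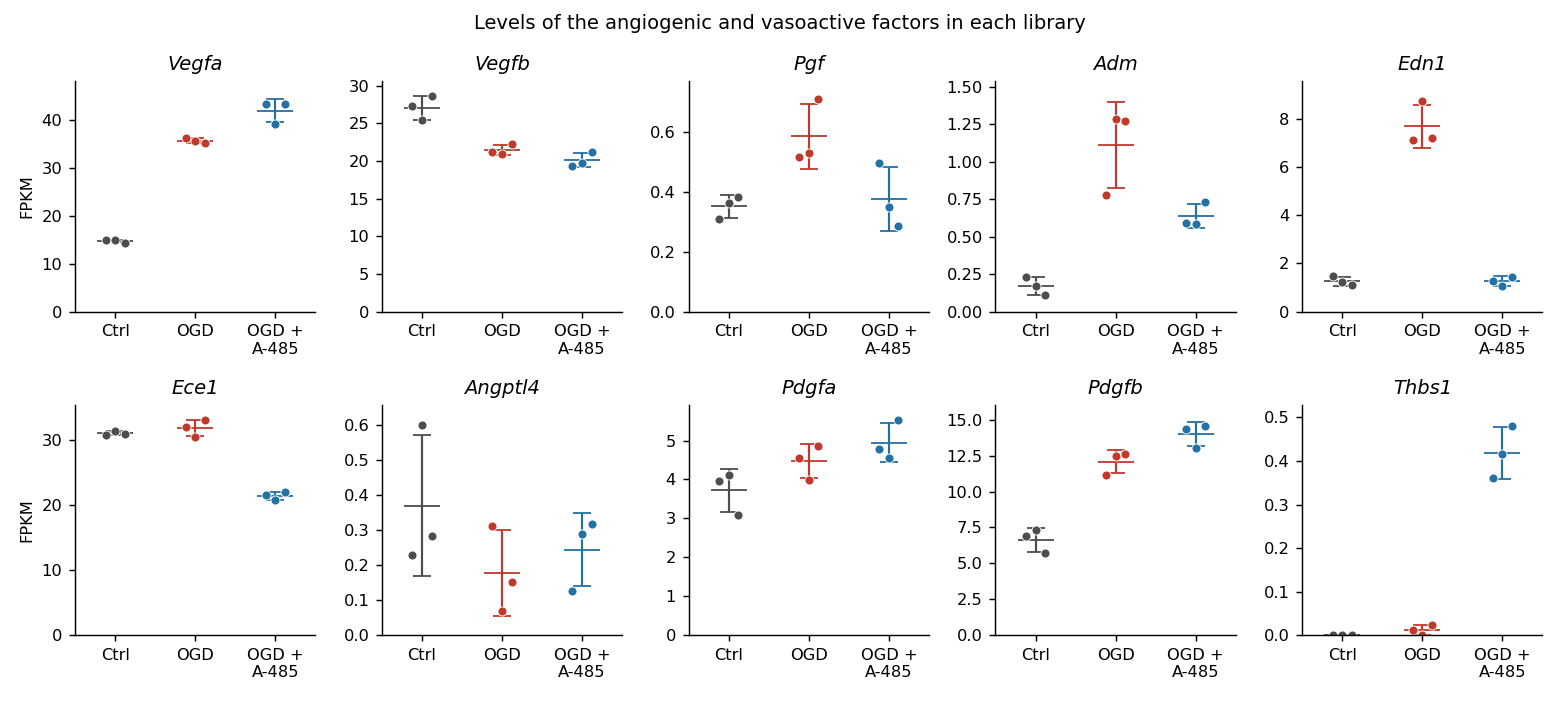
FPKM of the 10 members in each library (points), with the mean (long bar) and SD (capped bar) of the 3 libraries of each group, on linear axes that start at 0. Vegfa lay at 14.4 to 15.0 FPKM in Ctrl and at 35.2 or above in all other libraries, Edn1 was high in the OGD libraries and Thbs1 in the OGD + A-485 libraries.

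The VEGF family split by member. Vegfa (ENSMUSG00000023951; GRCm38 chromosome 17, 46016993 to 46032369, minus strand) had 15.0, 14.8 and 14.4 FPKM in the Ctrl libraries, 36.2, 35.5 and 35.2 in OGD, and 43.2, 39.1 and 43.3 in OGD + A-485. All OGD libraries were above all Ctrl libraries, and all OGD + A-485 libraries were above all OGD libraries. The rise with OGD was 2.41-fold (log2 fold change 1.27, standard error 0.05, adjusted p = 3.43e-07 from limma). With A-485 the level was 1.17-fold that of OGD (log2 fold change 0.23, adjusted p = 0.00253 from limma), which is under the size threshold and was not called. The value was 0.11 after quantile normalization (unadjusted p = 0.0215 from limma) and 0.17 with libraries scaled to their totals. The 50 nearest genes whose mean was 1 FPKM or more, which span 3.11 Mb, had a median log2 fold change of 0.19 in that comparison. Less this median, the difference of Vegfa was 0.04.

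Vegfb, on chromosome 19, differed in the other direction by a smaller amount. It had 27.3, 25.4 and 28.6 FPKM in Ctrl, 21.2, 20.9 and 22.3 in OGD, and 19.4, 19.8 and 21.2 in OGD + A-485. Ctrl was above both other groups without overlap, and OGD and OGD + A-485 overlapped. The log2 fold change was -0.33 in OGD against Ctrl (adjusted p = 0.00108 from limma) and -0.43 in OGD + A-485 against Ctrl (adjusted p = 0.000155 from limma), both below the size threshold. When libraries were scaled to their totals, the latter was -0.54 and was called. Pgf was low, with 0.309 to 0.383 FPKM in Ctrl, 0.514 to 0.710 in OGD, and with A-485 0.287 to 0.495, on 12 to 29 reads per library. The log2 fold change of Pgf with OGD, 0.59 (unadjusted p = 0.046, adjusted p = 0.0902 from limma), was not called.

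The ratio of Vegfa to Vegfb within a library does not depend on how the library was scaled. It was 0.549, 0.584 and 0.504 in Ctrl, 1.70, 1.70 and 1.58 in OGD, and 2.23, 1.98 and 2.04 in OGD + A-485. By FPKM, Vegfb RNA was therefore the more abundant in every Ctrl library and Vegfa RNA in every other library. The order in Ctrl rests on the gene lengths used for FPKM, 4285 bases for Vegfa and 1605 for Vegfb. By reads, Vegfa was above Vegfb in Ctrl too, with 857 to 1000 per library against 581 to 743. In OGD the ratio was 3.05 times that of Ctrl, and with A-485 it was 1.25 times that of OGD. Each difference had p = 0.1 by exact permutation (two-sided, 3 against 3 libraries; adjusted p = 0.1125 over the 9 ratio tests), the smallest p that this design allows.

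Adm (ENSMUSG00000030790; chromosome 7, 110627661 to 110629820, plus strand) rested on few reads. It had 0.231, 0.173 and 0.114 FPKM in Ctrl, 0.776, 1.28 and 1.27 in OGD, and 0.592, 0.587 and 0.728 in OGD + A-485, which are 3 to 5, 16 to 29 and 14 to 17 reads per library. The 3 groups did not overlap, with OGD highest and Ctrl lowest. The rise with OGD had a log2 fold change of 2.14 (standard error 0.27, adjusted p = 0.00022 from limma), and its size depended on the pseudocount, with 0.84 at 1 and 2.63 at 0.01. From the summed reads, 72 in OGD and 12 in Ctrl, the ratio of levels was 6.60 (95% exact interval 3.56 to 13.4, for counting error only). With A-485 the log2 fold change against OGD was -0.69 (unadjusted p = 0.0308, adjusted p = 0.0599 from limma), not called, and against Ctrl it was 1.45 (adjusted p = 0.00149 from limma). The last call was lost with a pseudocount of 1, where the value was 0.48. Adm overlaps the antisense gene Gm28863, which had 11 reads in Ctrl, 20 in OGD and 11 in OGD + A-485, and the sources used here do not say whether counting used the strand.

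Edn1 (ENSMUSG00000021367; chromosome 13, 42301476 to 42307990, plus strand) was high in OGD alone. Its level was 1.47, 1.25 and 1.10 FPKM in Ctrl, 7.12, 8.73 and 7.21 in OGD, and 1.28, 1.07 and 1.46 in OGD + A-485, from 36 to 45 reads per library outside OGD and 194 to 243 in it. Every OGD library was above all other libraries, and the Ctrl and OGD + A-485 libraries overlapped. OGD brought a log2 fold change of 2.51 (standard error 0.15, adjusted p = 3.78e-06 from limma). That of A-485 against OGD was -2.51 (adjusted p = 2.1e-06 from limma). In OGD + A-485 against Ctrl it was -0.00 (adjusted p = 0.985 from limma), and its sign turned under several alternatives. The 50 nearest genes had medians of -0.05 with OGD and -0.25 with A-485. An antisense gene over Edn1, Gm47118, had 1, 8 and 1 reads in the groups, against 118, 654 and 121 on Edn1.

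Ece1 (ENSMUSG00000057530; chromosome 4, 137862237 to 137965229, plus strand), the converting enzyme, fell with A-485 from a level that OGD had not moved past the spread. It had 30.9, 31.5 and 31.0 FPKM in Ctrl, 32.0, 30.5 and 33.1 in OGD, and 21.5, 20.8 and 22.0 in OGD + A-485. The Ctrl and OGD libraries overlapped, and all OGD + A-485 libraries were below them. Ece1 had a log2 fold change of 0.03 in OGD (adjusted p = 0.529 from limma). That of A-485 was -0.57 (standard error 0.04, adjusted p = 5.7e-06 by limma), close to the size threshold. The antisense gene Gm13012 had 265, 267 and 390 reads in the 3 groups, against 7223, 6735 and 5091 on Ece1. The ratio of Edn1 to Ece1 was 0.0476, 0.0396 and 0.0354 in Ctrl, 0.222, 0.286 and 0.218 in OGD, and 0.0595, 0.0513 and 0.0662 in OGD + A-485. The OGD libraries were highest, and those of OGD + A-485 were above Ctrl without overlap by 1.45-fold, each at the smallest exact permutation p of 0.1 (two-sided, adjusted p = 0.1125).

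The members called higher in OGD for which RefSeq promoters on GRCm38.p6 were at hand are given as letters, since they rose together. Promoters were found for 7 of the 10 members (13 start sites) in the set used here, which held no entry for Angptl4, Pdgfb and Thbs1. Each line gives the 250 bases before the start site, 5′ to 3′ on the strand of the gene: Vegfa at chr17:46032378-46032627 (minus strand, the more upstream of 2 start sites), Adm at chr7:110627407-110627656 (plus strand) and Edn1 at chr13:42301226-42301475 (plus strand). Capitals mark matches on either strand to any of 5 motifs: the hypoxia response core (ACGTG or GCGTG), AP-1 (TGANTCA), CRE, the ATF4 composite site and NF-kB.
Vegfa: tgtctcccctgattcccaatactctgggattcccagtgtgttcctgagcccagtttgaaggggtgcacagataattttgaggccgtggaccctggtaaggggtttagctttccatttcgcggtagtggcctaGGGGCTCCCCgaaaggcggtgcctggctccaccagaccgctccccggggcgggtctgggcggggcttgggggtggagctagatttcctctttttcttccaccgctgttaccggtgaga
Adm: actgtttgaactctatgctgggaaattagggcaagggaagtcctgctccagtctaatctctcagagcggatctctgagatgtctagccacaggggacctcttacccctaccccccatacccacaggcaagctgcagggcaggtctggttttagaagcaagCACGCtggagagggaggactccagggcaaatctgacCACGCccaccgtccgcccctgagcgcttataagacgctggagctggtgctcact
Edn1: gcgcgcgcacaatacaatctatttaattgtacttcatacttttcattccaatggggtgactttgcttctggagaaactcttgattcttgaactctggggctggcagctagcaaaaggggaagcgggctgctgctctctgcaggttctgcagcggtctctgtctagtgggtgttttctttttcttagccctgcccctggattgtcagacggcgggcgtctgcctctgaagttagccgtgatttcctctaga

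The stretch of Adm held 2 matches to the hypoxia core, at -90 to -86 and -54 to -50 from the start site. That of Vegfa held an NF-kB match at -118 to -109 and no hypoxia core, which stood at -218 to -214 and -211 to -207 of the other start site. The stretch before that other site, chr17:46025164-46025413, lies inside the gene. Letters beyond the windows were not searched. No match stood in the 250 bases of Edn1, and a hypoxia core was found at 22 to 26 after its start. Over the windows from 250 bases before to 50 bases after a start, a hypoxia core was present in 9 of the 13 windows of the members, against 43.8% of all 32851 windows of the table. In the 9, the overlapping windows 1 and 2 of Ece1 hold the same site. Each of the 7 members with a promoter had a core in at least 1 window, but they have more windows per gene than the table as a whole, where 46.7% of genes had one. NF-kB letters were found in Vegfa and Pdgfa and in 8.46% of all windows. AP-1, CRE and the ATF4 composite site, in 7.81%, 1.79% and 0.895% of all windows, were not found in the 13 windows of the members. None of the matches in the members overlapped a match to another of the motifs. A match is a description of letters and not a bound site.

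**Figure D2:**
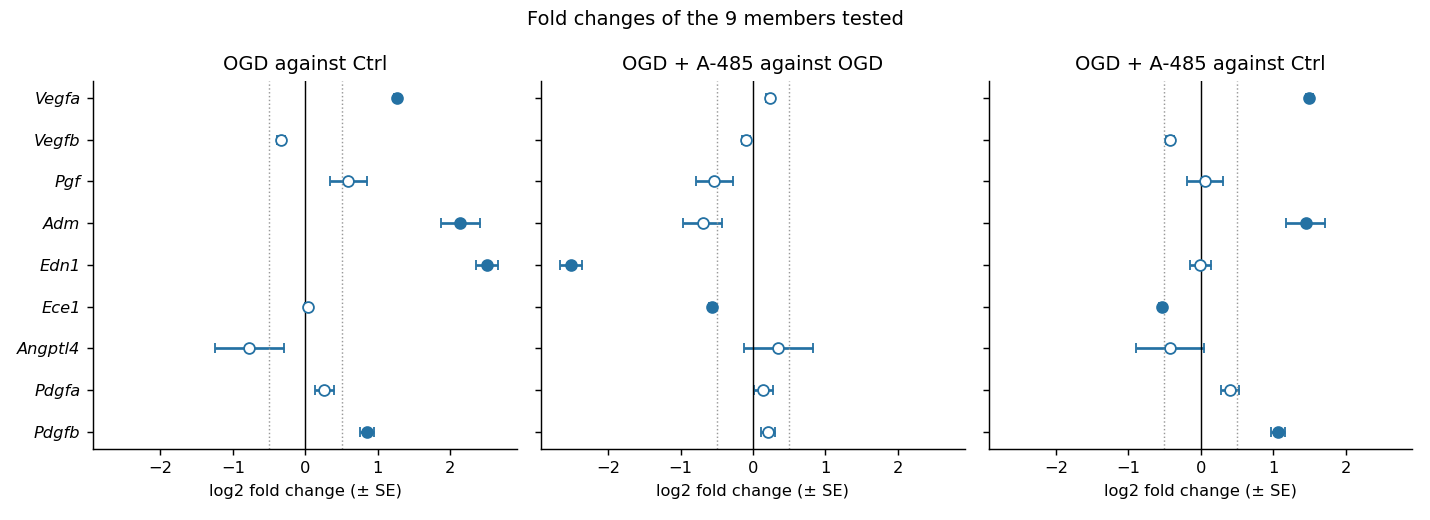
Log2 fold change (± standard error, limma, log2(FPKM + 0.1)) of the 9 members tested in the 3 comparisons, filled where called, with dotted lines at the size threshold of 0.5. Edn1 stands at 2.51 in OGD against Ctrl and at -2.51 in OGD + A-485 against OGD, while Vegfa stands at 1.27 and 0.23.

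The PDGF ligands differed in size of change. Pdgfb (ENSMUSG00000000489, chromosome 15) had 6.93, 7.32 and 5.73 FPKM in Ctrl, 11.2, 12.5 and 12.6 in OGD, and 14.3, 13.1 and 14.6 in OGD + A-485. The groups did not overlap, in the order Ctrl, OGD, OGD + A-485. The rise with OGD was 1.81-fold (log2 fold change 0.86, standard error 0.09, adjusted p = 0.000105 from limma), and the difference with A-485, 1.16-fold, was not called (unadjusted p = 0.0543 from limma). Pdgfa had 3.96, 4.12 and 3.09 FPKM in Ctrl, 4.56, 3.99 and 4.86 in OGD, and 4.78, 4.55 and 5.52 in OGD + A-485. Neighbouring groups overlapped, and no comparison called Pdgfa, with log2 fold changes of 0.26 with OGD, 0.14 with A-485 and 0.41 in OGD + A-485 against Ctrl (unadjusted p = 0.0116 from limma for the last). With a library left out, these ran from 0.14 to 0.34, from 0.07 to 0.21 and from 0.28 to 0.48. The 50 nearest genes of Pdgfa had a median of 0.30 with A-485, more than the gene itself. Antisense genes overlap both: 6330403L08Rik had 190, 170 and 267 reads in the 3 groups against 504, 556 and 690 on Pdgfa, and Gm41361 had 17, 23 and 71 against 1205, 2005 and 2605 on Pdgfb. The ratio of Pdgfa to Pdgfb was 0.539 to 0.572 in Ctrl, 0.320 to 0.408 in OGD, and with A-485 0.334 to 0.378, lower than in Ctrl in both deprived groups (two-sided exact permutation p = 0.1, the smallest possible; adjusted p = 0.1125).

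Angptl4, often counted among genes that hypoxia induces, was scarce and variable. It had 0.228, 0.598 and 0.282 FPKM in Ctrl, 0.311, 0.0701 and 0.151 in OGD, and 0.125, 0.289 and 0.317 in OGD + A-485, from 3 to 28 reads per library. All 3 groups overlapped, and the log2 fold change of -0.77 with OGD had a standard error of 0.47 (unadjusted p = 0.139 from limma). With a library left out it ran from -1.10 (without OGD library 1) to -0.44 (without Ctrl library 2), and it was -0.21 with a pseudocount of 1 and -1.12 with one of 0.01. By summed reads, 23 in OGD and 53 in Ctrl, the ratio of levels was 0.477 (95% exact interval 0.279 to 0.792, for counting error only). Reads per library ran from 10 to 28 in Ctrl and from 3 to 13 in OGD, and no comparison called Angptl4.

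Thbs1 (ENSMUSG00000040152; chromosome 2, 118111876 to 118127133, plus strand) appeared in the OGD + A-485 libraries. It had 0, 0 and 0 reads in Ctrl, 1, 0 and 2 in OGD, and 32, 40 and 42 in OGD + A-485, the last being 0.361, 0.417 and 0.480 FPKM. All OGD + A-485 libraries were above all others, at a level that was still under that of Adm. Set against a floor of 3 reads over the Ctrl group, Thbs1 was at least 37.1-fold higher in OGD + A-485 than in Ctrl, and the ratio to OGD was 33.8 (95% exact interval 11.3 to 166, for counting error only). Its mean over the 9 libraries, 0.144 FPKM, was below the filter. In the fit without a filter, it was called in both comparisons (adjusted p = 4.2e-05 against OGD and 1.79e-05 against Ctrl from limma). A lincRNA gene on the other strand, Gm29233, had 0 reads in every library. The ratio of Vegfa to Thbs1 has no value in libraries where Thbs1 is at 0 and is not given.

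By mean FPKM, the members were ordered differently in the 3 groups. In Ctrl, Ece1 (31.1 FPKM) and Vegfb (27.1) were followed by Vegfa (14.7), Pdgfb (6.66), Pdgfa (3.72) and Edn1 (1.27), without overlap between neighbours, and Angptl4 (0.369) and Pgf (0.352) could not be ordered beyond their spread. In OGD, Vegfa (35.6) came before Ece1 (31.9) and Vegfb (21.5), and Edn1 (7.69) had moved above Pdgfa (4.47). In OGD + A-485, Vegfa (41.9) was far above Ece1 (21.5) and Vegfb (20.1), whose libraries overlapped, and Edn1 (1.27) was below Pdgfa (4.95) again. The members with a mean under 1 FPKM in OGD + A-485 were Adm, Thbs1, Pgf and Angptl4, of which the last 3 overlapped in part.

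Several receptors for these ligands were close to 0 in BV2. Of 15 receptors and binding partners chosen for the members, 6 passed the filter and 9 did not. The 15 are not complete: Itgav, Itgb3, Lrp1 and Scarb1, which were listed with the thrombospondins and their receptors, passed the filter as well. Flt1, the receptor that VEGF-A, VEGF-B and PlGF share, had 22.4 ± 0.669 FPKM in Ctrl, 22.2 ± 0.118 in OGD and 19.8 ± 0.723 in OGD + A-485 (n = 3, SD), and no comparison called it, the lower level in OGD + A-485 being under the size threshold. Kdr, the main signalling receptor of VEGF-A, had 2 to 5 reads per library in Ctrl, 1 to 6 in OGD, and with A-485 9 to 13. Ednra and Ramp1 had 0 reads in every library, and Ednrb had 1 read in all. Pdgfra and Pdgfrb had at most 8 reads in a library. Calcrl, the adrenomedullin receptor, had 3.74 ± 0.782, 3.18 ± 0.315 and 3.56 ± 0.311 FPKM in the 3 groups (n = 3, SD) and was not called. Its partner Ramp2 had 11, 6 and 7 reads in Ctrl, 0, 1 and 0 in OGD, and 0 in each OGD + A-485 library, at least 8.19-fold lower in OGD + A-485 than in Ctrl by a floor of 3 reads over the group.

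Nrp1 and Cd36 were higher with A-485, and Cd47 with OGD. Nrp1, a coreceptor of VEGF-A, had 1.69, 1.89 and 1.69 FPKM in Ctrl, 1.39, 1.68 and 1.61 in OGD, and 5.44, 4.86 and 4.87 in OGD + A-485. The last group was above both others, 3.11-fold over OGD (log2 fold change 1.64, standard error 0.10, adjusted p = 2.76e-06 from limma), and the difference between OGD and Ctrl was not called. Nrp2 was 27.4 ± 0.657, 24.6 ± 0.532 and 34.0 ± 0.975 FPKM (n = 3, SD), a log2 fold change of 0.46 with A-485 that stayed under the size threshold. Cd36 had 2.50, 1.99 and 2.17 FPKM in Ctrl, 2.50, 3.42 and 2.81 in OGD, and 10.1, 12.6 and 11.7 in OGD + A-485. Ctrl and OGD overlapped, and the rise with A-485 was 3.86-fold (adjusted p = 5.23e-06 from limma). Cd47 rose with OGD from 13.0 ± 0.321 to 23.7 ± 0.958 FPKM (adjusted p = 1.75e-06 from limma) and was 25.2 ± 0.755 in OGD + A-485 (n = 3, SD).

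Beyond the members, 113 genes in 7 lists cover other parts of these pathways, without holding every gene, and 46 of them passed the filter. The lists were chosen with earlier results of these data known, which limits what their shares can show. In OGD, 18 of the 46 (39.1%) were called higher and 3 (6.52%) lower, where 11.2% and 9.81% of all genes tested were, with a median log2 fold change of 0.33 against 0.01 over all genes tested. With A-485 against OGD, 12 were higher and 14 lower (26.1% and 30.4%, where 12.2% and 13.4% of all genes were), with a median of 0.10 against 0.01. In OGD + A-485 against Ctrl, 20 were higher and 10 lower (43.5% and 21.7%, where 17.0% and 16.6% of all genes were), with a median of 0.58 against 0.02. In both comparisons with A-485, the higher genes include Apln, Ang and S1pr1, which passed the filter through the OGD + A-485 libraries alone. The means of Apln and Ang there were 6.72 and 4.30 FPKM, against 0.0083 and 0.043 in OGD and 0.016 and 0.134 in Ctrl. The shares of all genes rest on the same filter. Of the 5 genes listed with the PDGF ligands and receptors, 0 passed the filter. The list of VEGF ligands and receptors had 3 tested genes, of which 1, Nrp1, was called, and the list of the adrenomedullin and endothelin system had 1, Calcrl.

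**Figure D3:**
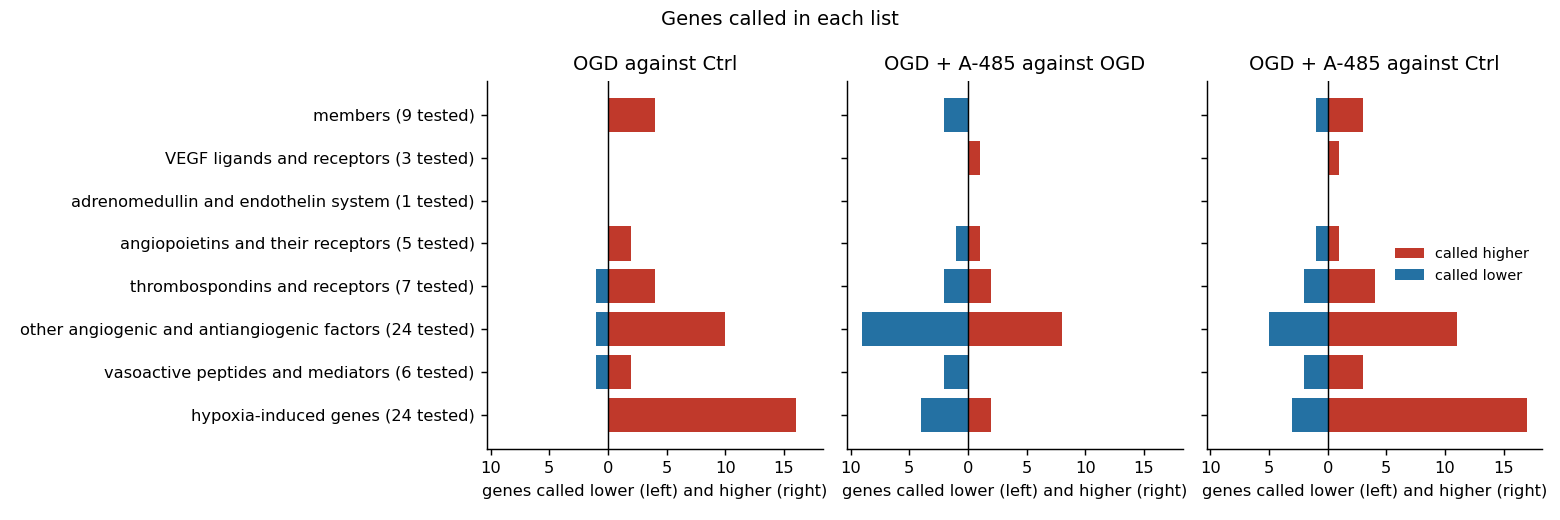
Number of genes called higher (right of 0) and lower (left of 0) in each list and comparison, with the number tested in brackets. In OGD against Ctrl, 16 of the 24 hypoxia-induced genes and 10 of the 24 other angiogenic and antiangiogenic factors were called higher, and in OGD + A-485 against OGD, 9 of the latter were called lower and 8 higher. Over all genes tested, 11.2% were called higher in the first comparison, and 13.4% lower and 12.2% higher in the second.

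Among the angiopoietins and their receptors, 2 of 5 tested genes were called higher in OGD, and with A-485 1 was called higher and 1 lower. The matching shares of all genes tested were 11.2%, 12.2% and 13.4%. Angpt2, an antagonist of the receptor TIE2 in many settings, had 1.23 ± 0.181 FPKM in Ctrl, 2.12 ± 0.184 in OGD and 3.87 ± 0.378 in OGD + A-485 (n = 3, SD), with each step called (log2 fold changes 0.74 and 0.84, adjusted p = 0.00134 and 0.000584 from limma). The step with OGD was 0.49 with a pseudocount of 1 and no longer called. Angptl6 rose with OGD from 1.32 ± 0.404 to 2.86 ± 0.461 FPKM (n = 3, SD). Angptl2 had 20.2 ± 0.646 FPKM in Ctrl and 26.3 ± 1.29 in OGD and fell to 6.79 ± 0.456 in OGD + A-485 (n = 3, SD), a log2 fold change of -1.94 with A-485 (adjusted p = 6.18e-08 from limma). All 3 genes overlap protein-coding genes on the other strand: Mcph1 over Angpt2, A230050P20Rik over Angptl6 and Ralgps1 over Angptl2.

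In the list of thrombospondins and their receptors, 4 of 7 tested genes were called higher and 1 lower in OGD, and 2 higher and 2 lower with A-485. Of all genes tested, 11.2% and 9.81% were in OGD, and 12.2% and 13.4% with A-485. Itgb3, the integrin subunit that pairs with Itgav, had 3.18, 2.95 and 2.55 FPKM in Ctrl, 7.12, 7.54 and 8.35 in OGD, and 0.348, 0.365 and 0.388 in OGD + A-485. The groups were far apart, with OGD highest and OGD + A-485 lowest. The log2 fold change of Itgb3 in OGD was 1.38 (adjusted p = 1.78e-05 from limma), and that of A-485 against OGD was -4.05 (standard error 0.11, adjusted p = 3.79e-08 from limma), or -2.66 with a pseudocount of 1. Itgav rose with OGD from 15.0 ± 0.827 to 27.7 ± 2.16 FPKM and was at 22.7 ± 1.27 in OGD + A-485 (n = 3, SD). Thbs3, another thrombospondin, fell at each step, from 7.91 ± 0.255 FPKM in Ctrl to 5.25 ± 0.687 in OGD and 1.43 ± 0.161 in OGD + A-485 (n = 3, SD). Both falls were called, with log2 fold changes of -0.59 with OGD and -1.80 with A-485 (adjusted p = 0.00236 and 2.72e-06 from limma). Mtx1 overlaps Thbs3 on the other strand.

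The list of other angiogenic and antiangiogenic factors had 24 tested genes. Of these, 10 were called higher and 1 lower in OGD, and 8 higher and 9 lower with A-485. The shares of all genes tested were 11.2% and 9.81% in OGD, and 12.2% and 13.4% with A-485. Among the 8 are Apln, Ang and S1pr1, which passed the filter through the OGD + A-485 libraries alone. S1pr1 had log2 fold changes of 3.50 against OGD and 3.22 against Ctrl. Plau, which encodes urokinase, had 94.2, 98.9 and 89.4 FPKM in Ctrl, 325.5, 358.4 and 343.8 in OGD, and 59.9, 59.8 and 66.8 in OGD + A-485. It was highest in OGD, and all OGD + A-485 libraries were below Ctrl. The rise with OGD was 3.64-fold (adjusted p = 2.39e-07 from limma), and A-485 brought a log2 fold change of -2.46 against OGD (adjusted p = 2.6e-08 from limma). Anxa2, a surface receptor for plasminogen and its activator, rose with OGD from 117 ± 1.34 to 313 ± 3.50 FPKM and fell to 191 ± 9.24 with A-485 (n = 3, SD).

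Apln, which encodes the vasoactive peptide apelin, was almost absent until A-485 was added. It had 2, 0 and 0 reads in Ctrl, 1, 0 and 0 in OGD, and 329, 344 and 276 in OGD + A-485, or 7.15, 6.92 and 6.08 FPKM. From the reads, the ratio of OGD + A-485 to OGD was 843 with a 95% exact counting interval of 151 to 33330, and that to Ctrl was 464 (128 to 3834). Ang, which encodes angiogenin, had 0.134 ± 0.0371 FPKM in Ctrl, 0.0431 ± 0.0373 in OGD and 4.30 ± 0.528 in OGD + A-485 (n = 3, SD), a ratio of 103 to OGD (28.2 to 856). It shares its locus and strand with Rnase4, which had 50, 11 and 1508 reads in the 3 groups, and how reads on both were counted is not stated. Igf1 had 1.48 ± 0.0701 FPKM in Ctrl, 2.30 ± 0.199 in OGD and 18.1 ± 0.674 in OGD + A-485 (n = 3, SD), called in both steps (log2 fold changes 0.60 and 2.92, adjusted p = 0.000295 and 3.59e-08 from limma).

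**Figure D4:**
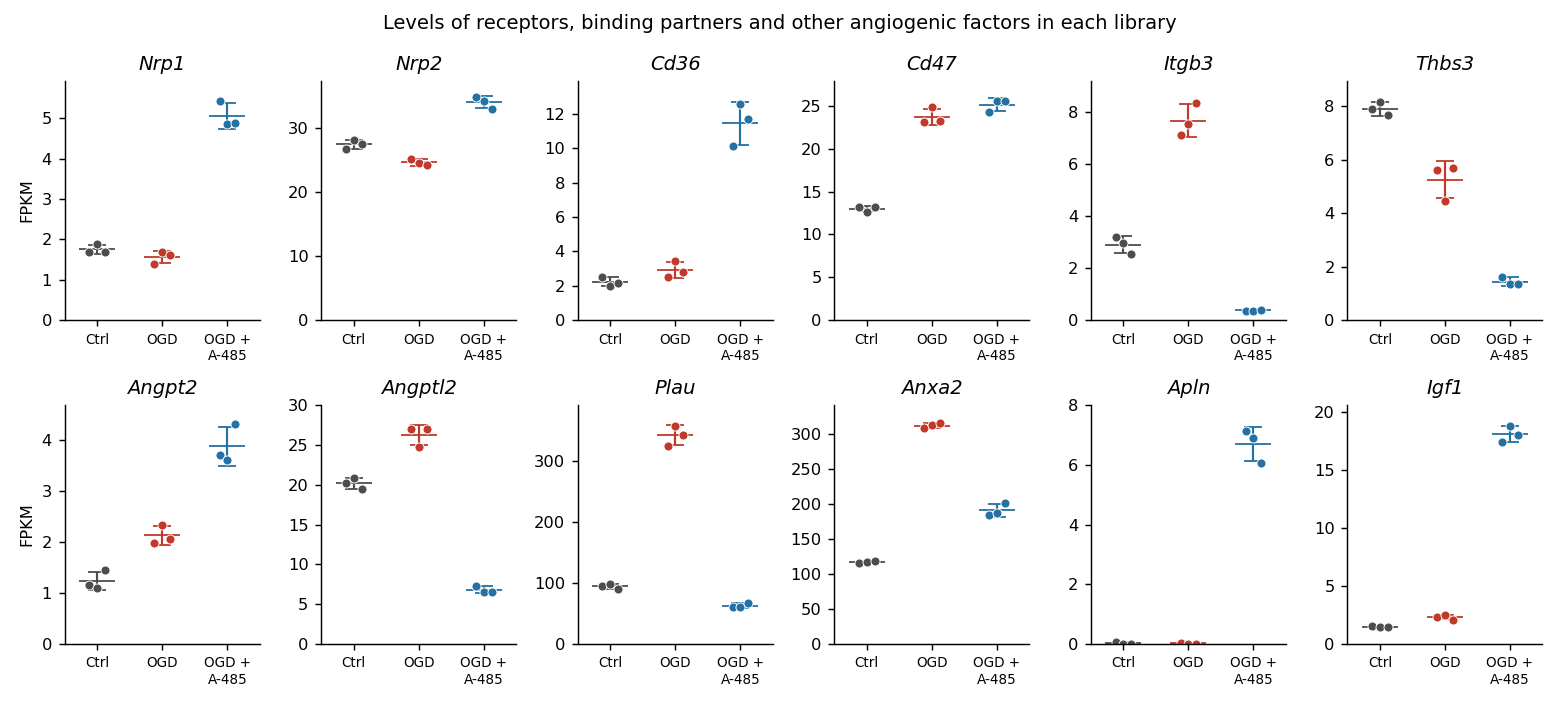
FPKM in each library (points) with mean and SD of the 3 libraries per group for 12 receptors, binding partners and other angiogenic factors, on linear axes that start at 0. Apln, Igf1, Nrp1 and Cd36 are highest in OGD + A-485, Itgb3, Plau and Anxa2 are highest in OGD, and Thbs3 is highest in Ctrl.

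Of the vasoactive peptides and mediators, 6 of 25 listed genes were tested. Nos1, a nitric oxide synthase, rose with OGD from 0.597 ± 0.0263 to 1.29 ± 0.142 FPKM and stayed at 1.28 ± 0.0647 with A-485 (n = 3, SD). Gch1, which starts the synthesis of the cofactor tetrahydrobiopterin, rose with OGD from 4.30 ± 0.0856 to 7.17 ± 0.894 FPKM (n = 3, SD, adjusted p = 0.000149 from limma). The adenosine receptor genes were lower: Adora2a had 2.15 ± 0.192, 1.17 ± 0.0879 and 0.698 ± 0.0773 FPKM in Ctrl, OGD and OGD + A-485, and Adora2b had 5.25 ± 0.492, 4.84 ± 0.809 and 2.61 ± 0.446 (n = 3, SD). Both steps of Adora2a were called, the one with A-485 not with a pseudocount of 1 (-0.35 in place of -0.67), and of Adora2b only the step with A-485 (log2 fold change -0.86, adjusted p = 0.00132 from limma).

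Genes known to be induced by hypoxia give the setting in which the members moved. Of 24 such genes, all tested, 16 were called higher in OGD and 0 lower by limma, where 11.2% and 9.81% of all genes were. Of the 24, 23 were above 0, and the median log2 fold change was 0.98 against 0.01 over all genes. With A-485 against OGD, 2 of the 24 were called higher and 4 lower, where 12.2% and 13.4% of all genes were, with a median of -0.06. Ero1l rose with OGD from 90.7 ± 4.73 to 466 ± 68.0 FPKM and was at 405 ± 11.5 with A-485, and Hilpda went from 46.7 ± 2.10 to 165 ± 5.15 and 166 ± 11.9 (n = 3, SD). P4ha2 rose with OGD from 0.318 ± 0.0694 to 1.99 ± 0.129 FPKM and further to 2.996 ± 0.199 with A-485 (n = 3, SD). P4ha1 rose with A-485 from 57.0 ± 1.25 to 94.3 ± 3.67 FPKM, whereas Mxi1 fell from 39.4 ± 0.683 to 21.8 ± 0.706 (n = 3, SD). Egln3, an oxygen-sensing hydroxylase, had 84.8 ± 4.90 FPKM in Ctrl, 335 ± 3.77 in OGD and 53.4 ± 0.846 in OGD + A-485 (n = 3, SD), and its log2 fold change with A-485 was -2.65 (adjusted p = 3.47e-09 from limma).

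Markers of other cell types were looked at beside these values, since several members are best known from vessels. The 9 endothelial markers summed to 1.32 to 1.36 FPKM in Ctrl, 2.48 to 3.12 in OGD, and with A-485 4.26 to 4.58, led by Vwf with a mean of 1.79 FPKM. In OGD against Ctrl, all 3 tested were higher, and 2 of them were called, where 11.2% of all genes tested were. Called were Vwf (mean 0.677 and 1.41 FPKM) and Pecam1 (0.362 and 0.866), and Cdh5 (0.2125 and 0.5003) was not. From OGD to OGD + A-485 only Vwf of the 3 was higher (mean 1.41 and 3.27 FPKM), while Pecam1 (0.866 and 0.739) and Cdh5 (0.5003 and 0.3244) were lower without a call. Among the 9, Cldn5, Erg and Emcn had 0 reads in every library. The 8 pericyte and fibroblast markers summed to at most 1.25 FPKM, led by Acta2, with 3 (Col1a2, Dcn and Lum) at 0 reads. The astrocyte and neuron lists summed to at most 0.155 and 0.151 FPKM in a library. The 5 oligodendrocyte markers summed to 1.44 to 1.55 FPKM in Ctrl, 1.70 to 2.36 in OGD, and with A-485 1.02 to 1.31, without overlap. Of these, Mbp was the most abundant at 0.956 FPKM, and Mog, Mag and Olig2 had 0 reads. The part of the endothelial and oligodendrocyte lists in the changes of the members was not tested.

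For each member that averaged 1 FPKM or more, up to 3 of the genes with the most similar pattern are named, taken by Pearson's r of log2(FPKM + 0.1) across the 9 libraries, among 10214 genes and as a description without a test. Vegfa was followed most closely by Pgm2, Gsn and Hcar2 (r from 0.998 to 0.999), Edn1 by Setd4, Cited2 and Snx14 (0.994 to 0.995), and Ece1 by genes that include Hip1r and Dvl1 (0.994 to 0.996). Pdgfb was followed by Atp6v0a1, Tep1 and Tgoln1 (0.991 to 0.993), Vegfb by Slc20a2, Thoc3 and Coa3 (0.984 to 0.994), and Pdgfa by Alg12, Aldh16a1 and Rap1gap (0.941 to 0.946). The 9 libraries form 3 groups, so such values mostly reflect the order of the group means, and 494 genes reached an r of 0.95 with Vegfa.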

How the data were processed

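The deposited values are FPKM, which the authors computed from gene length and from FeatureCounts reads after filtering for adapters, uncalled bases and quality. The authors tested with DESeq2. The submitters' processing notes name GRCm38 and mm10, and the aligner and annotation release are not given in the sources used here. From the deposited FPKM and gene length, whole reads were recovered for 100% of the values above 0 (tolerance 0.05 reads). Genes whose mean reached 0.2 FPKM (16123) entered a limma 3.58.1 fit (R 4.3.3) of log2(FPKM + 0.1) on group means, the prior variance following a trend. The fit was tested on simulated data, in which it recovered 81.8% of 2-fold and 86.7% of 4-fold changes and called 0.506% of unchanged genes. The simulation gave every gene the same dispersion, which real genes need not have. Ratios were compared with exact permutation tests in scipy 1.17.1. Of the 12 ratio tests planned, the 3 with Thbs1 could not be computed, and adjustment was over 9. Python 3.11.15, numpy 2.4.6, pandas 2.3.3 and matplotlib 3.10.9 were also used. Replicates varied beyond counting noise, with 2.80 to 5.73 as chi-square over degrees of freedom. Promoters are from RefSeq (GRCm38.p6).

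The members, their receptors and, from each other list and comparison, up to 3 called genes with the largest absolute log2 fold change and a mean of 1 FPKM or more are named, with up to 3 genes most like each member. Not every gene that meets this rule is named. The members and lists were chosen with earlier results of these data known. The alternatives were quantile normalization, scaling to library totals, pseudocounts of 0.01 and 1, no filter or one at 1 FPKM, fits of the compared groups alone, the replicate block, no variance trend, limma-voom on the recovered reads, adjusted p under 0.05, subtraction of the neighbours' median, and each library left out. Intervals and floors cover counting error only.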

Additional observations from a re-analysis of the deposited data

How the results depend on the processing

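The calls of Vegfa, Pdgfb, Edn1 and Ece1 were made under every alternative run, and that of Adm in OGD wherever it was tested. No shared deviation was seen in libraries with the same replicate number: the mean correlation of their deviations was -0.0023 (from -0.046 to 0.039 over 9 pairs). Whether such libraries were handled together cannot be told from this value. With a replicate block, the fit called 4 members higher and 0 lower in OGD, 0 higher and 2 lower with A-485, and 3 higher and 1 lower in OGD + A-485 against Ctrl. Without a filter, 1 member, Thbs1, was called higher in OGD + A-485 against OGD. With libraries scaled to their totals, 2 members were called lower in OGD + A-485 against Ctrl (Ece1 and Vegfb), and the share of all calls that were higher went from 50.6% to 40.2% in that comparison, from 53.3% to 46.0% in OGD against Ctrl and from 47.7% to 40.6% in OGD + A-485 against OGD. With a minimum mean of 1 FPKM, Pgf, Adm and Angptl4 had no value. With a pseudocount of 1, Pgf was 0.23 in OGD and Adm was -0.36 with A-485 against OGD.

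Differences near 0 changed sign, and the cause was not tested. Pgf in OGD + A-485 against Ctrl (0.06) was -0.12 after quantile normalization, -0.031 with library totals and from -0.11 to 0.20 with a library left out. Edn1 in that comparison (-0.00) was 0.0005 with limma-voom, 0.31 less the median of its neighbours and from -0.10 to 0.11 with a library left out. Ece1 in OGD was -0.0151 with library totals and -0.0782 less its neighbours, Pdgfa with A-485 was -0.15 less its neighbours, and the log2 ratio of Pdgfa to Pdgfb with A-485 (-0.07) ran from -0.17 to 0.0071 with a library left out. Adm, Pgf, Angptl4 and Thbs1 rest on 0 to 42 reads per library.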
